A study of Zea mays with 24 samples.

Results

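The leaf transcriptome of wild type Ye478, a Chinese maize inbred line, was compared between plants under moderate drought that were sprayed with abscisic acid (moderate drought-ABA) and untreated plants (control), which gives the joint change under both treatments. The comparison takes 6 of the 24 libraries of the series, 3 individual plants under moderate drought-ABA and 3 under control, picked by their labelled line and treatment and not by any measured value. Moderate drought was a pot mix moisture of 50%, against 70% under control. Moderate drought-ABA plants received 15 mg/L ABA as a foliar spray from the first day of moderate drought, whereas control plants were sprayed with tap water. The second fully-expanded leaf from the top was taken 9 d after moderate drought and spraying began, from plants that had reached the 5-leaf stage when drought began. Ye478 under moderate drought alone and under control-ABA (ABA without drought) completed the wild type series, and Y7-1, a single transgenic line of Ye478 with a ZmPMP3g construct behind a CaMV promoter, had the same 4 treatments. None of the 6 plants compared carried the construct. Of the 46430 genes in the deposited table, 23978 reached 0.5 FPKM in at least 3 of 24 libraries and were tested. FPKM is fragments per kilobase of gene, scaled here to a library size that differed from the total of its gene reads.

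ABA is the hormone that accumulates in leaves when water runs short. It is cut from carotenoids by 9-cis-epoxycarotenoid dioxygenases (NCED) and broken down by ABA 8'-hydroxylases. PYR/PYL receptors that have bound ABA block the clade A protein phosphatases 2C (PP2C), which frees SnRK2 kinases to phosphorylate the ABF/ABI5 bZIP factors. Dehydrins, late embryogenesis abundant (LEA) proteins and ABA stress ripening (ASR) proteins are among the protective products of this pathway, while DRE-binding factors also act without ABA. A plant sprayed with ABA during drought has the applied hormone beside the one it makes itself.

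The 6 libraries had similar depth, from 17626554 to 18178814 reads under moderate drought-ABA and from 16451914 to 18428177 under control, and the 10 most abundant genes held 9.33% to 10.2% and 9.62% to 10.2% of them. All 6 were read as Ye478: of 62 genes read only in that line they held 56 to 62, and of 118 read only in Y7-1 they held 0. Leaf marker lists were high in every library. The mean log2(FPKM + 0.5) of light harvesting genes was 7.75 to 8.14 under moderate drought-ABA and 7.82 to 8.11 under control, and that of bundle sheath genes was 7.76 to 8.04 and 7.62 to 7.94. Of the markers of other tissues, 9 of 19 root endodermis and iron genes, 20 of 61 pollen genes and 27 of 41 seed storage genes were at 0 in all 6 libraries, while others were read. The mean log2(FPKM + 0.5) of the 7 root genes tested was 1.90 to 2.47 under moderate drought-ABA and 2.07 to 2.39 under control, and that of 29 pollen genes was 1.75 to 1.91 and 1.92 to 1.98. For 10 seed storage genes it was 2.39 to 2.64 under moderate drought-ABA and 1.96 to 2.26 under control, so that these groups did not overlap, and 1 of the 10 rose and 0 fell (limma). Phloem markers stood higher under moderate drought-ABA (mean 3.83 to 3.96) than under control (3.24 to 3.31), with 2 of 5 passing the test, and the share of phloem cells was not tested. A principal component analysis of the 6 libraries put 64.3% of their variance on its first axis, where the moderate drought-ABA libraries lay at -61.1, -28.1 and -86.4 and the control libraries at 56.1, 67.0 and 52.5. Moderate drought-ABA library 2 thus lay nearest to control and library 3 farthest. In whole leaves, a lower share of cells of a type and less RNA per cell cannot be told apart.

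A differentially expressed gene (DEG) had an adjusted p under 0.05 (limma, Benjamini-Hochberg over all 23978 genes) and a log2 fold change of at least 1 in size on the log2(FPKM + 0.5) scale, which understates changes of low genes. Each library is 1 plant, with 3 plants per group. The spread behind each SE and p was pooled over the plants of all 8 groups in both lines, not taken from the 6 plants compared alone. Under moderate drought-ABA 1134 genes were up-regulated (4.73% of those tested) and 580 were down-regulated (2.42%), 1714 DEGs in all (7.15%). When only the compared groups were fitted, 1250 were up-regulated and 568 down-regulated. The third library labelled Y7-1 moderate drought held the genes read only in Ye478 and enters only the pooled spread. Without it 1279 were up-regulated and 632 down-regulated. Up-regulated DEGs had a median of 16.2 FPKM under moderate drought-ABA against 3.54 FPKM under control, and down-regulated DEGs a median of 2.17 FPKM against 7.11 FPKM, with a median log2 fold change of 1.71 and -1.38. Changes of at least 8-fold were found for 137 up-regulated and 27 down-regulated DEGs. The libraries of the groups did not overlap for 1690 of the 1714 DEGs, a separation seen in 40.6% of all genes tested. Where non-overlap is given for single genes below, it is to be read beside these shares. DEGs came from every chromosome, from 5.88% of the genes tested on chromosome 2 to 9.08% on chromosome 8.

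The number of DEGs depended on single libraries. Without moderate drought-ABA library 3, 462 genes were up-regulated and 166 down-regulated, and without control library 2 they were 553 and 218. Up-regulated DEGs numbered 677 without moderate drought-ABA library 1 and 754 without control library 3, for which 385 were down-regulated, while 1304 and 709 were found without moderate drought-ABA library 2. Among the 1134 up-regulated DEGs, moderate drought-ABA library 2 was the lowest of its group for 841 (74.2%, against 31.3% of all genes), and among the 580 down-regulated DEGs library 3 was the lowest for 426 (73.4%, against 36.0%). Library 2, nearest to control on the first axis, thus had the lowest levels of most up-regulated DEGs, and library 3 had the lowest levels of most down-regulated DEGs. The axis and the DEGs come from the same values, so the axis is no separate observation.

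**Figure D1:**
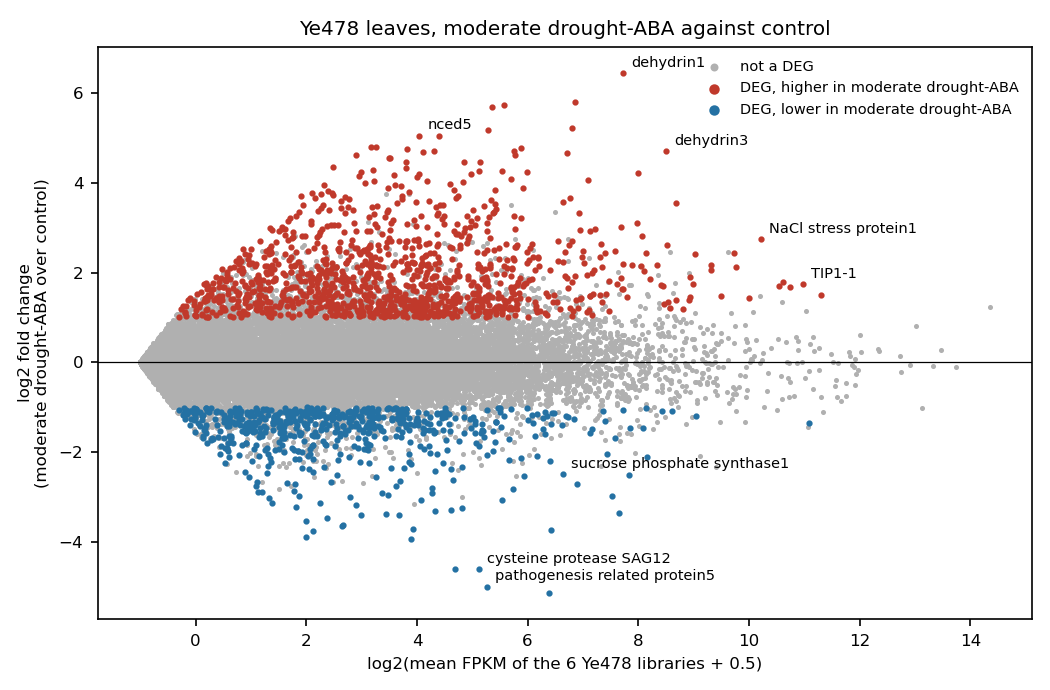
Log2 fold change of moderate drought-ABA over control in Ye478 (y axis) against the mean level of the 6 libraries as log2(FPKM + 0.5) (x axis), 1 point per gene tested, with DEGs in color. The 1134 up-regulated DEGs reached a log2 fold change of 6.44 at dehydrin1, and the 580 down-regulated DEGs included sucrose phosphate synthase1 at -2.49.

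The gene with the largest up-regulation among named DEGs whose groups did not overlap was dehydrin1 (Zm00001d037894, chromosome 6, 141324495 to 141325549), a protein of the dehydrin family that shields membranes and proteins in drying cells. It had 610, 206 and 438 FPKM under moderate drought-ABA, against 5.15, 2.64 and 4.30 FPKM under control. That the groups did not overlap was a condition of this choice. The log2 fold change was 6.44 ± 0.76 (SE, adjusted p = 0.00025, limma). Dehydrin3 (Zm00001d051420) had 1049, 339 and 710 FPKM against 27.9, 23.0 and 21.1 FPKM, giving 4.70 ± 0.75 in log2 fold change (adjusted p = 0.0011). LEA protein group 3 (Zm00001d043709) was close to absent without treatment. It had 24, 10.8 and 6.86 FPKM under moderate drought-ABA, whereas 2 control libraries were at 0 and the third at 0.0565 FPKM (log2 fold change 4.61 ± 0.36, adjusted p = 2.8e-06). Genes named for seed and oil body proteins were also among these DEGs. A seed maturation protein (Zm00001d024414) had 23.5, 7.99 and 19.1 FPKM against 0.236, 0 and 0 FPKM, and OBAP2B (Zm00001d011755), an oil body-associated protein, had 15.8, 7.42 and 31.1 FPKM against 0.287, 0 and 0 FPKM. Their log2 fold changes were 4.80 ± 0.59 and 4.78 ± 0.60. The mean of the seed storage markers was higher under moderate drought-ABA too, and its part in these values was not tested.

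Regulators were also among the 15 leading up-regulated genes. DRE-binding protein4 (Zm00001d036003), an AP2 factor of the ABA-independent branch, had 68.4, 18.9 and 26.7 FPKM under moderate drought-ABA and 0.891, 0.345 and 1.24 FPKM under control (log2 fold change 4.71 ± 0.79, adjusted p = 0.0016). Homeobox-transcription factor 53 (Zm00001d002754) had 50.8, 15.1 and 31.6 FPKM against 0.434, 0.231 and 1.78 FPKM (4.67 ± 0.84, adjusted p = 0.0023). EID1-like F-box protein 3 (Zm00001d043180), a subunit of ubiquitin ligases, had 35.8, 6.68 and 21.9 FPKM against 0, 0.420 and 0.502 FPKM (4.54 ± 0.58, adjusted p = 0.00043). For all 3, library 2 was the lowest under moderate drought-ABA. It lay above each control library, which the choice of leading genes without overlap required. A PEBP family protein (Zm00001d010586), of the family of phosphatidylethanolamine-binding proteins, averaged 202 ± 78.7 FPKM against 7.66 ± 4.03 FPKM (SD, n = 3 each), a log2 fold change of 4.66 (limma adjusted p = 0.00045). Stem-specific protein TSJT1 (Zm00001d026632) had the second-ranked change but a wide spread, with 225, 12.2 and 442 FPKM against 0, 0.981 and 9.29 FPKM (5.80 ± 1.55, adjusted p = 0.023). Its call was lost without moderate drought-ABA library 1 or 3 or control library 1 or 2, and with voom or when only these groups were fitted (adjusted p up to 0.22).

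Of 13 ABA synthesis genes tested, 2 rose, both NCEDs, and 1 fell, with a list median log2 fold change of -0.50, beside 6.54% of all genes tested that rose, 4.89% that fell and a median of 0. The nced5 gene (Zm00001d018819, chromosome 7, 6342456 to 6344361) had 48.0, 19.9 and 26.3 FPKM under moderate drought-ABA, against 0.564, 0.158 and 0.551 FPKM under control. Viviparous14 (Zm00001d033222, chromosome 1, 255021507 to 255023321), the dioxygenase through which this step was found in maize, had 56.0, 25.7 and 34.2 FPKM against 3.46, 3.05 and 2.04 FPKM. Neither gene overlapped between the groups, as for 1690 of the 1714 DEGs. The log2 fold changes were 5.05 ± 0.72 (adjusted p = 0.00058) for nced5 and 3.5 ± 0.51 (adjusted p = 0.0006) for viviparous14. The most abundant NCED under control, nced6 (Zm00001d051556), went the other way in value, with 233, 259 and 113 FPKM against 351, 388 and 577 FPKM, but did not pass the test (-1.17 ± 0.44, adjusted p = 0.089).

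Zeaxanthin epoxidase makes the violaxanthin from which the NCED substrates derive. The gene model Zm00001d025544 fell, with 51.8, 38.1 and 17.3 FPKM under moderate drought-ABA against 81.7, 136 and 95.2 FPKM under control (log2 fold change -1.63 ± 0.43, adjusted p = 0.02). It lies beside zeaxanthin epoxidase2 (Zm00001d025545), which had 278, 204 and 193 FPKM against 305, 324 and 315 FPKM (-0.50, adjusted p = 0.21), so reads of a locus split over 2 models may be shared between them. The call of Zm00001d025544 was lost without moderate drought-ABA library 3 or control library 2 or 3, and when only these groups were fitted (adjusted p up to 0.14). Of 5 ABA 8'-hydroxylase genes 0 passed in either direction in limma, with a median log2 fold change of -1.01. At an unadjusted p under 0.05 they numbered 1 higher and 3 lower, with voom 0 passed and with array weights 3. Abscisic acid 8'-hydroxylase4 (Zm00001d020717) was by far the most abundant of them, with 307, 170 and 70.5 FPKM against 416, 440 and 449 FPKM (-1.49 ± 0.54, adjusted p = 0.08). Every moderate drought-ABA library was below every control library for this gene, and 40.6% of all genes tested had no overlap. It passed with array weights or without moderate drought-ABA library 1.

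Among 9 ABA receptor genes 3 rose and 0 fell (33.3%, against 6.54% of all genes tested that rose), with a median log2 fold change of 0.37. One of 4 genes named PYL9 (Zm00001d010445, chromosome 8, 115433371 to 115435609) had 33.5, 11.6 and 30.8 FPKM under moderate drought-ABA, against 4.19, 4.01 and 5.69 FPKM under control (2.21 ± 0.54, adjusted p = 0.014). The most abundant PYL9 gene (Zm00001d016105) had 85.4, 57.1 and 125 FPKM against 94.2, 79.3 and 97.0 FPKM (-0.08, adjusted p = 0.95), so its groups overlapped. PYR1 (Zm00001d030045) had 19.9, 20.2 and 27.2 FPKM against 10.0, 14.5 and 9.66 FPKM (0.95 ± 0.30, adjusted p = 0.044), and PYL5 (Zm00001d038436) stayed under 2 FPKM in each library (adjusted p = 0.046). All 3 calls rested on single libraries. That of the PYL9 gene was lost without moderate drought-ABA library 1 or 3 or control library 2 (adjusted p up to 0.083), that of PYR1 without any 1 of the 6 libraries, with the replicate block or without a filter (up to 0.19), and that of PYL5 without moderate drought-ABA library 1 or 3 or control library 1 or 3 and in 4 other settings (up to 0.25).

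Of 87 PP2C genes of all clades, among which clade A holds the ABA pathway back when receptors are empty, 12 rose and 2 fell (13.8% and 2.30%, against 6.54% and 4.89% of all genes tested), with a median of 0.13. A neighbouring pair both named PP2C 16 led them. Zm00001d011132 (chromosome 8, 140008931 to 140009959) had 97.2, 36.8 and 90.7 FPKM under moderate drought-ABA against 7.54, 4.95 and 7.23 FPKM under control, and Zm00001d011131 (139985928 to 139987215) had 68.3, 24.5 and 48.5 FPKM against 7.14, 4.32 and 5.41 FPKM. The log2 fold changes were 3.31 ± 0.44 (adjusted p = 0.00045) and 2.86 ± 0.46 (adjusted p = 0.0011), and reads shared by the pair cannot be told apart here. PP2C 37 (Zm00001d028574) had 115, 62.4 and 72.5 FPKM against 17.5, 11.2 and 9.90 FPKM (2.64 ± 0.57, adjusted p = 0.0071), and protein phosphatase homolog12 (Zm00001d038846) had 133, 72.1 and 136 FPKM against 22.4, 19.4 and 21.4 FPKM (2.35 ± 0.36, adjusted p = 0.00083). The lowest moderate drought-ABA library of each of these 4 genes was above the highest control library, and 1690 of the 1714 DEGs had no overlap.

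Of 9 SnRK2 kinase genes 2 rose and 0 fell (22.2%, against 6.54% of all genes tested that rose, median 0.02). SnRK2 serine threonine protein kinase 4 (Zm00001d042695) had 41.7, 23.2 and 25.9 FPKM under moderate drought-ABA and 5.83, 6.42 and 7.19 FPKM under control (log2 fold change 2.10 ± 0.33, adjusted p = 0.00088). SnRK2 kinase2 (Zm00001d022179) moved less, with 16.7, 15.6 and 20.2 FPKM against 11.5, 9.17 and 8.71 FPKM (0.81 ± 0.20, adjusted p = 0.017), and its call was lost without moderate drought-ABA library 3 or control library 2 or 3 (adjusted p up to 0.10). Among 9 ABI5/ABF factors, which bind the ABA response element, 1 rose and 0 fell (11.1%, median 0.35). This was bZIP-transcription factor 68 (Zm00001d050018), with 4.17, 2.59 and 4.96 FPKM against 1.2, 0.933 and 0.982 FPKM (1.48 ± 0.31, adjusted p = 0.0054). The most abundant of the 9, bZIP-transcription factor 4 (Zm00001d018178), had 222, 112 and 135 FPKM against 64.4, 51.6 and 51.8 FPKM without passing (1.42 ± 0.52, adjusted p = 0.086). Its groups did not overlap, as for 40.6% of all genes tested.

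**Figure D2:**
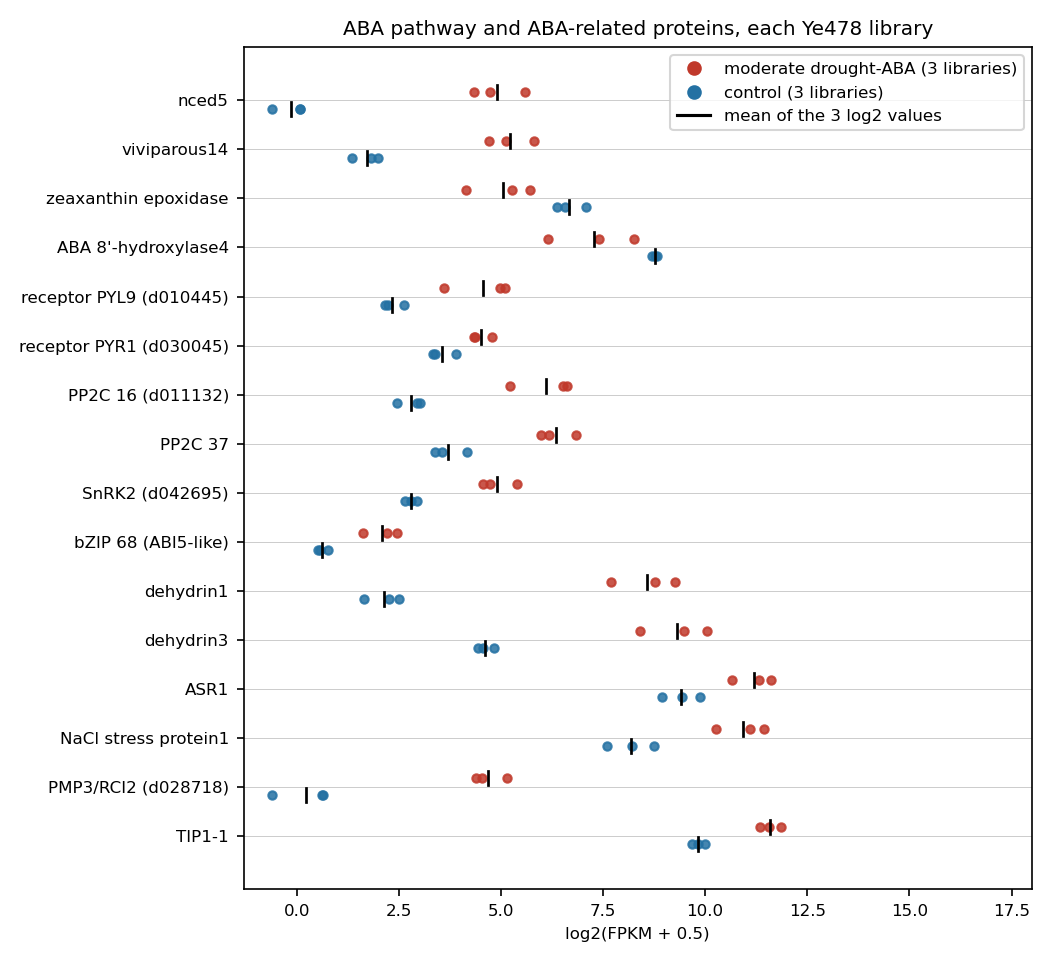
Level of 16 genes in each Ye478 library as log2(FPKM + 0.5), with moderate drought-ABA (red) drawn above control (blue) and a black bar at the mean of 3. The genes are of ABA synthesis, breakdown and signaling and of dehydrin, ASR, PMP3/RCI2 and aquaporin proteins. The nced5 gene, viviparous14, the PP2C genes and dehydrins were separated upward, while zeaxanthin epoxidase and ABA 8'-hydroxylase4 lay lower under moderate drought-ABA.

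In the protective protein families no member fell. Of 29 dehydrin and LEA genes 12 rose and 0 fell (41.4%, median 0.96), and 52 of the 90 matched in the table were at 0 in all 6 libraries. A dehydrin family protein (Zm00001d045321) had 6.53, 3.91 and 34.3 FPKM under moderate drought-ABA against 0.0419, 0.0891 and 0 FPKM under control (4.24 ± 0.94, adjusted p = 0.0084), a call lost without moderate drought-ABA library 3 and with voom (adjusted p up to 0.085). Of 9 ASR genes 2 rose (22.2%, against 6.54% of all genes tested). ASR1 (Zm00001d023529) had 3146, 1609 and 2568 FPKM against 933, 494 and 686 FPKM (1.79 ± 0.36, adjusted p = 0.0045), one of the most abundant transcripts that rose. ASR3 (Zm00001d003712) had 990, 798 and 346 FPKM against 443, 186 and 162 FPKM, so that 1 control library overlapped with the treated range, and its call (adjusted p = 0.032) was lost without moderate drought-ABA library 1 or 2 or control library 2 or 3 and when only these groups were fitted (up to 0.14).

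Genes of the PMP3/RCI2 family encode small hydrophobic proteins of the plasma membrane, and 4 of 8 rose with 0 falling (50%, against 6.54% of all genes tested that rose, median 0.92). The ZmPMP3g homolog NaCl stress protein1 (Zm00001d024778, chromosome 10, 87401369 to 87401545) was the most abundant of the 4. It had 2179, 1240 and 2771 FPKM under moderate drought-ABA against 296, 195 and 433 FPKM under control (log2 fold change 2.74 ± 0.58, adjusted p = 0.0064). Proteolipid membrane potential regulator4 (Zm00001d028718) had 22.7, 20.4 and 34.9 FPKM against 1.05, 0.159 and 1.06 FPKM (4.47 ± 0.74), and regulator5 (Zm00001d022264) had 25.3, 16.5 and 30.2 FPKM against 1.26, 0.966 and 0.991 FPKM (3.92 ± 0.64). Regulator2 (Zm00001d006329), already expressed under control, had 76.8, 57.1 and 70.7 FPKM against 28.6, 25.1 and 28.0 FPKM (1.3 ± 0.24, adjusted p = 0.0025). The groups stood apart for all 4 genes, as for 1690 of the 1714 DEGs. A gene described as low temperature and salt responsive protein (Zm00001d046834), which the words that define this list did not match, was in contrast down-regulated, with 0.236, 1.92 and 0 FPKM against 29.4, 8.27 and 2.04 FPKM (-3.18 ± 0.90, adjusted p = 0.029). Its call was lost without moderate drought-ABA library 1 or 3 or control library 1 or 2, with voom and when only these groups were fitted (up to 0.15). HVA22-like protein e (Zm00001d007341), of a barley ABA-induced family, had 577, 314 and 524 FPKM against 73.7, 50.3 and 73.0 FPKM (2.81 ± 0.71, adjusted p = 0.017), a call lost without moderate drought-ABA library 1 or 3 or control library 2 (up to 0.08).

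Enzymes of compatible solutes and sugars split by pathway. Galactinol synthases supply the galactosyl donor of raffinose, and 3 of 5 raffinose family genes rose with 0 falling (60%, against 6.54% of all genes tested that rose, median 2.10). Galactinol synthase1 (Zm00001d028931) had 604, 152 and 309 FPKM under moderate drought-ABA against 80.7, 60.7 and 60.4 FPKM under control (2.19 ± 0.46, adjusted p = 0.006, and 0.051 when only these groups were fitted). Of 20 trehalose genes 8 rose and 0 fell (40%, median 0.47). Trehalose-phosphate phosphatase J (Zm00001d029371), which releases trehalose from its phosphate, had 108, 34.1 and 64.8 FPKM against 7.47, 5.45 and 7.87 FPKM (3.09 ± 0.65, adjusted p = 0.0057). Both genes were lowest in moderate drought-ABA library 2 without overlapping control, as 1690 of the 1714 DEGs did not. Of 6 proline genes 1 rose, delta-1-pyrroline-5-carboxylate synthase B (Zm00001d038358), with 0.993, 1.09 and 0.799 FPKM against 0.133, 0.219 and 0.241 FPKM (1.06 ± 0.29, adjusted p = 0.025), lost without any 1 of the 6 libraries (up to 0.077).

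Of 68 sucrose and starch genes 5 rose and 9 fell (7.35% and 13.2%, against 6.54% and 4.89% of all genes tested). The rising share was near that of all genes. Sucrose phosphate synthase1 (Zm00001d012036, chromosome 8, 166917606 to 166923260), which makes sucrose in source leaves, had 46.0, 32.1 and 16.8 FPKM under moderate drought-ABA against 183, 162 and 157 FPKM under control. The highest treated library was thus far below the lowest control library, and 1690 of the 1714 DEGs had no overlap. The log2 fold change was -2.49 ± 0.34 (adjusted p = 0.00046). Beta amylase2 (Zm00001d027619), of a family that releases maltose from starch, had 1065, 636 and 936 FPKM against 180, 130 and 182 FPKM (2.40 ± 0.43, adjusted p = 0.0021). Sucrose synthase 3 (Zm00001d029087), which cleaves sucrose, had 4.40, 3.52 and 6.74 FPKM against 1.2, 0.896 and 1.36 FPKM (1.67 ± 0.29, adjusted p = 0.0019). Of 27 sugar transporter genes 1 rose and 5 fell (3.70% and 18.5%), while the list median was 0.18. Sugar transporter ERD6-like 6 (Zm00001d009605) had 6.45, 11.1 and 5.46 FPKM against 33.3, 40.5 and 23.6 FPKM (-2.04 ± 0.37, adjusted p = 0.0026), and sugar transport protein 7 (Zm00001d020463) had 5.44, 3.46 and 1.89 FPKM against 14.6, 12.3 and 9.51 FPKM (-1.70 ± 0.32, adjusted p = 0.0032).

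Of 27 aquaporin genes, which encode water channels, 3 rose and 1 fell (11.1% and 3.70%, against 6.54% and 4.89% of all genes tested, median 0.33). The vacuolar channel TIP1-1 (Zm00001d027652) had 3678, 2595 and 3027 FPKM under moderate drought-ABA against 1023, 825 and 905 FPKM under control (1.75 ± 0.48, adjusted p = 0.024). Plasma membrane intrinsic protein2 (Zm00001d019563) had 2816, 1766 and 2328 FPKM against 755, 624 and 703 FPKM (1.71 ± 0.43, adjusted p = 0.017). These 2 genes were among the most abundant DEGs, and neither overlapped between the groups, as for 1690 of the 1714 DEGs. The call of TIP1-1 was lost without any 1 of the 6 libraries except moderate drought-ABA library 2 (adjusted p up to 0.092), and that of plasma membrane intrinsic protein2 without moderate drought-ABA library 1 or 3 or control library 2 (up to 0.072).

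Named down-regulated DEGs were led by pathogenesis related protein5 (Zm00001d031158), a defence protein of the thaumatin type. It had 3.07, 3.43 and 0.112 FPKM under moderate drought-ABA against 122, 33.0 and 66.2 FPKM under control (-4.99 ± 1.29, adjusted p = 0.019), and the call was lost without moderate drought-ABA library 3 or control library 1 or 3 and with voom (adjusted p up to 0.17). A senescence-specific cysteine protease named SAG12 (Zm00001d049113) was steadier, with 1.96, 3.69 and 1.26 FPKM against 42.1, 90.1 and 66.5 FPKM (-4.60 ± 0.53, adjusted p = 0.00025). It does not stand for its group: of 49 senescence and cysteine protease genes 6 rose and 3 fell (12.2% and 6.12%, against 6.54% and 4.89% of all genes tested, median 0.42). A putative leucine-rich repeat receptor kinase (Zm00001d024291) had 0.943, 2.28 and 1.58 FPKM against 41.1, 46.1 and 60.5 FPKM (-4.60 ± 0.62, adjusted p = 0.00045). Zinc transporter 7 (Zm00001d033446) was listed at 0 in all 3 moderate drought-ABA libraries and had 7.27, 6.68 and 6.85 FPKM under control (adjusted p = 0.0017). Cellulose synthase-like protein D3 (Zm00001d021732), of a family that makes wall polymers in tip-growing cells, had 0.111, 0 and 0.197 FPKM against 7.01, 8.17 and 7.56 FPKM (-3.76 ± 0.40, adjusted p = 0.00015). Serine carboxypeptidase-like 51 (Zm00001d029410) had 2.99, 1.95 and 0.520 FPKM against 21.9, 13.2 and 32.8 FPKM (-3.40 ± 0.54, adjusted p = 0.001). Moderate drought-ABA library 3 was the lowest for pathogenesis related protein5, SAG12 and serine carboxypeptidase-like 51.

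Photosynthesis genes held few members that passed the test. Of 73 light harvesting and photosystem genes and of 10 bundle sheath C4 and Rubisco genes 0 rose and 0 fell in limma (medians 0.00 and -0.05), and the same held for 47 plastid ribosomal protein genes (median -0.04). At an unadjusted p under 0.05, 5 light harvesting genes were lower, 1 bundle sheath gene was higher, and 1 plastid ribosomal gene was on each side. With voom 0 of each list passed, and with array weights 3, 2 and 5. Light harvesting chlorophyll a/b binding protein2 (Zm00001d021435) had 13069, 14399 and 12016 FPKM under moderate drought-ABA against 14121, 13221 and 14929 FPKM under control (adjusted p = 0.95). NADP malic enzyme3 (Zm00001d000316), which releases CO2 in the bundle sheath, had 3465, 3709 and 4226 FPKM against 3380, 2988 and 4032 FPKM (adjusted p = 0.83). Among 11 mesophyll C4 genes 2 rose and 1 fell (18.2% and 9.09%, against 6.54% and 4.89% of all genes tested). These shares do not cover every gene with such a name. Phosphoenolpyruvate carboxylase 3 (Zm00001d024980, log2 fold change -3.2) and oxo-glutarate/malate transporter1 (Zm00001d023929, -1.46) were down-regulated DEGs as well. Carbonic anhydrase1 (Zm00001d044099), which supplies bicarbonate to the C4 cycle, had 1768, 1482 and 630 FPKM against 3109, 3100 and 2863 FPKM (-1.35 ± 0.41, adjusted p = 0.04), and phosphoenolpyruvate carboxylase1 (Zm00001d046170), which fixes it, had 1741, 1512 and 539 FPKM against 3003, 3241 and 2841 FPKM (-1.43 ± 0.46, adjusted p = 0.051). Both were lower in each treated library than in any control library, and lowest in moderate drought-ABA library 3. Of all genes tested, 40.6% had no overlap. The carbonic anhydrase1 call was lost without moderate drought-ABA library 3 or any control library, without a filter and when only these groups were fitted (up to 0.24), whereas phosphoenolpyruvate carboxylase1 passed without moderate drought-ABA library 1 or 2 and in 5 other settings. Carbonic anhydrase5 (Zm00001d020764), at a far lower level than carbonic anhydrase1, rose, with 38.9, 22.2 and 43.4 FPKM against 11.6, 15.1 and 14.2 FPKM (1.27 ± 0.26, adjusted p = 0.0047).

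Histone genes encode the proteins that package DNA: 22 of 60 rose and 1 fell (36.7% and 1.67%), with a median log2 fold change of 1.22 and 50 of 60 higher in value. These genes form families of near-identical copies, so the level of a single copy is uncertain. Histone H2A (Zm00001d021706) had 34.4, 16.1 and 39.2 FPKM under moderate drought-ABA against 5.75, 5.73 and 5.64 FPKM under control (2.20 ± 0.44, adjusted p = 0.0047), and the H3 gene H3C2 (Zm00001d041672) had 18.2, 7.00 and 28.9 FPKM against 1.32, 1.84 and 2.00 FPKM (2.87 ± 0.56, adjusted p = 0.0037). Neither overlapped between the groups, as for 1690 of the 1714 DEGs. Of 87 cyclin and replication genes 9 rose and 1 fell (10.3% and 1.15%, against 6.54% and 4.89% of all genes tested). Those that rose included cyclin-dependent kinase inhibitors, which slow the cell cycle. An inhibitor of the EL2 type (Zm00001d048533) had 28.0, 19.9 and 37.5 FPKM against 6.89, 4.69 and 8.26 FPKM (2.01 ± 0.55, adjusted p = 0.025), lost without moderate drought-ABA library 1 or 3 or control library 1 or 2 (up to 0.12). Cytosolic ribosomal protein genes hardly passed, with 1 rising and 6 falling of 281 (0.356% and 2.14%), though 212 were lower in value (median -0.25).

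Heat shock genes rose at about the share of all genes and fell at a lower one, with 15 rising and 7 falling of 247 (6.07% and 2.83%). The 17.4 kDa class III heat shock protein (Zm00001d018298), a small chaperone, had 207, 85.9 and 188 FPKM under moderate drought-ABA against 40.7, 17.3 and 16.5 FPKM under control (2.69 ± 0.56, adjusted p = 0.0058). HSF-transcription factor 28 (Zm00001d046299) had 7.92, 3.17 and 5.22 FPKM against 0.960, 0.311 and 0.410 FPKM (2.45 ± 0.51, adjusted p = 0.0054). Among 49 antioxidant enzyme genes 2 rose and 0 fell (4.08% and 0%, against 6.54% and 4.89% of all genes tested), with a median of -0.02. Catalase1 (Zm00001d014848), which splits hydrogen peroxide, was 1 of the 2. Catalase1 had 94.6, 78.8 and 123 FPKM against 40.9, 39.7 and 45.9 FPKM (1.2 ± 0.19, adjusted p = 0.00088). Of 50 glutathione S-transferase genes 6 rose and 2 fell (12% and 4%), with GSTU6 (Zm00001d043795) at 146, 56.9 and 90.1 FPKM against 14, 8.77 and 5.90 FPKM (3.26 ± 0.63, adjusted p = 0.0036). In all 4 genes the groups stayed apart, as they did for 1690 of the 1714 DEGs and 40.6% of all genes tested.

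Genes of other hormones followed different directions. Of 27 ethylene genes 6 rose and 0 fell (22.2%, against 6.54% of all genes tested that rose, median 0.25). Those that rose included 4 genes of 1-aminocyclopropane-1-carboxylate oxidase, the last enzyme of ethylene synthesis. The oxidase2 gene (Zm00001d020686) had 169, 83.8 and 238 FPKM under moderate drought-ABA against 33.0, 50.2 and 36.4 FPKM under control (1.92 ± 0.46, adjusted p = 0.012), lost without moderate drought-ABA library 3 (0.089). Jasmonate genes fell more often than they rose, with 2 rising and 7 falling of 62 (3.23% and 11.3%, against 6.54% and 4.89% of all genes tested, median -0.07). 12-oxo-phytodienoic acid reductase6 (Zm00001d040842), of jasmonate synthesis, had 15.9, 12 and 8.68 FPKM against 40.5, 40.7 and 42.4 FPKM (-1.76 ± 0.30, adjusted p = 0.0019), and the repressor ZIM-transcription factor 9 (Zm00001d035382) had 0.235, 0.115 and 0 FPKM against 1.34, 2.37 and 1.83 FPKM (-1.92 ± 0.33, adjusted p = 0.0019). ZIM-transcription factor 14 (Zm00001d048268) was the opposite case, at 1.51, 0.526 and 2.67 FPKM under moderate drought-ABA and listed at 0 in all control libraries (adjusted p = 0.0044).

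Of 42 gibberellin (GA) genes 6 rose and 1 fell (14.3% and 2.38%, against 6.54% and 4.89% of all genes tested). GA 2-oxidase6 (Zm00001d037724), which inactivates GA, had 11.3, 1.59 and 10.8 FPKM under moderate drought-ABA against 0, 0.0457 and 0 FPKM under control (3.66 ± 0.69, adjusted p = 0.0032). GA 20-oxidase5 (Zm00001d012212), which makes GA precursors, had 5.54, 7.38 and 1.67 FPKM against 36.1, 38.1 and 23.3 FPKM (-2.78 ± 0.55, adjusted p = 0.0042). This GA 2-oxidase was thus higher and this GA 20-oxidase lower in every treated library, and 1690 of the 1714 DEGs had no overlap. They are 2 of the 42 genes and do not stand for the other oxidases. In Y7-1 the same comparison gave GA 20-oxidase5 a log2 fold change of 1.27, and its difference between the lines did not pass the test. A receptor gene described as GID1L2 (Zm00001d031805), a description that other genes share, had 301, 193 and 297 FPKM against 52.3, 41.9 and 59.3 FPKM (2.34 ± 0.40, adjusted p = 0.0016). GA-regulated protein 1 (Zm00001d033369) had 14.1, 13.0 and 15.3 FPKM against 0.250, 0.266 and 0.478 FPKM (4.14 ± 0.56, adjusted p = 0.00045).

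Of 115 auxin genes 12 rose and 6 fell (10.4% and 5.22%), and of 48 cytokinin genes 6 rose and 4 fell (12.5% and 8.33%), against 6.54% and 4.89% of all genes tested. Aux/IAA-transcription factor 32 (Zm00001d018973), a repressor of auxin response, had 71.4, 69.7 and 45.6 FPKM under moderate drought-ABA against 14.8, 8.67 and 10.1 FPKM under control (2.43 ± 0.41, adjusted p = 0.0016). PIN-formed protein2 (Zm00001d018024), an auxin efflux carrier, had 2.04, 1.35 and 0.429 FPKM against 7.80, 7.97 and 7.39 FPKM (-2.33 ± 0.53, adjusted p = 0.0095), lost without moderate drought-ABA library 3 (0.074). Cytokinin oxidases, which degrade cytokinins, were split. Cytokinin oxidase 4 (Zm00001d043293) had 24.5, 11.4 and 10.1 FPKM against 3.08, 2.39 and 2.83 FPKM (2.17 ± 0.34, adjusted p = 0.00088), and cytokinin oxidase10 (Zm00001d032046) had 6.96, 6.25 and 2.76 FPKM against 18.6, 31.0 and 18.7 FPKM (-2.05 ± 0.49, adjusted p = 0.013), the second lost without moderate drought-ABA library 3 or control library 2 (up to 0.094).

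Transcription factor families were read against the 6.54% of all genes tested that rose and the 4.89% that fell. MYB factors had 26 rising and 6 falling of 169 (15.4% and 3.55%), NAC factors 10 and 2 of 69 (14.5% and 2.90%), bZIP factors 14 and 2 of 100 (14% and 2%) and AP2-EREBP factors 14 and 4 of 113 (12.4% and 3.54%). The shares of bHLH factors, with 10 rising and 2 falling of 110 (9.09% and 1.82%), of WRKY factors, with 7 and 3 of 93 (7.53% and 3.23%), and of homeobox factors, with 10 and 10 of 134 (7.46% each), were nearer to those of all genes. NAC-transcription factor 118 (Zm00001d008399) had 7.05, 3.30 and 8.99 FPKM under moderate drought-ABA and was listed at 0 in all control libraries (adjusted p = 0.0066). Homeobox-transcription factor 41 (Zm00001d017422) had 350, 139 and 180 FPKM against 29.4, 21.3 and 12.7 FPKM (3.33 ± 0.74, adjusted p = 0.0084), and bZIP-transcription factor 95 (Zm00001d042721) had 34.7, 16.4 and 38.4 FPKM against 5.81, 5.03 and 4.13 FPKM (2.39 ± 0.36, adjusted p = 0.0008). The factor ERF105 (Zm00001d051340), of the ethylene response family, had 6.84, 2.43 and 6.42 FPKM against 0.0550, 0.117 and 0.120 FPKM (3.15 ± 0.54, adjusted p = 0.0017). These 4 factors had no treated library within the control range, and 1690 of the 1714 DEGs had no overlap.

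Signaling and transport genes were measured as further groups. Of 185 calcium sensor and CIPK genes 20 rose and 7 fell (10.8% and 3.78%), with CBL-interacting protein kinase 5 (Zm00001d020496) at 37.6, 25.5 and 33.6 FPKM under moderate drought-ABA against 6.37, 7.72 and 5.93 FPKM under control (2.18 ± 0.31, adjusted p = 0.0006). Of 69 potassium and ion channel genes 9 rose and 6 fell (13.0% and 8.70%, against 6.54% and 4.89% of all genes tested). Two-pore potassium channel 1 (Zm00001d049218) had 16.3, 10.8 and 10.0 FPKM against 2.82, 1.17 and 1.31 FPKM (2.55 ± 0.39, adjusted p = 0.00083). Phosphate starvation genes fell more often than they rose, with 1 rising and 8 falling of 55 (1.82% and 14.5%, median -0.46). Among them phosphate transporter protein7 (Zm00001d031875) had 1.35, 1.64 and 1.19 FPKM against 7.67, 6.46 and 4.88 FPKM (-1.84 ± 0.45, adjusted p = 0.014), lost without moderate drought-ABA library 3 or control library 1 or 2 (up to 0.071). ECERIFERUM 1 (Zm00001d014055), of wax synthesis, was 1 of 2 genes that fell among 27 wax and cutin genes, of which 2 others rose (7.41% each way), with 4.03, 3.18 and 2.30 FPKM against 19.3, 23.0 and 23.2 FPKM (-2.63 ± 0.43, adjusted p = 0.0014). The stay-green protein 1 gene (Zm00001d021288), of chlorophyll breakdown, was the 1 of 27 chlorophyll genes that rose while 1 other fell (3.70% each way, against 6.54% and 4.89% of all genes tested), at 31.7, 15.4 and 25.3 FPKM against 5.78, 5.19 and 6 FPKM (1.94 ± 0.43, adjusted p = 0.0078).

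**Figure D3:**
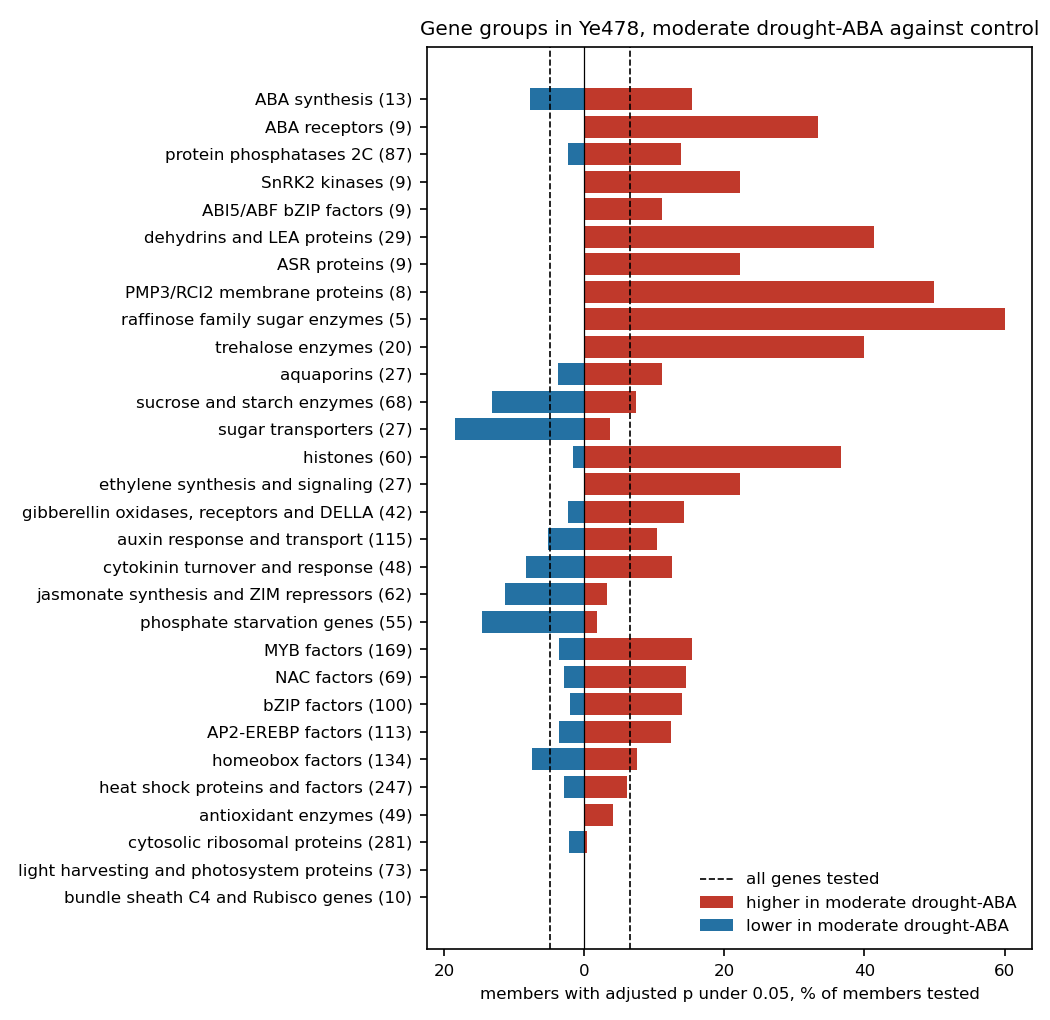
Share of the tested members of 30 gene lists (number tested in parentheses) that were higher (red, right) or lower (blue, left) under moderate drought-ABA than under control at an adjusted p under 0.05, in % of members. Dashed lines give all genes tested, 6.54% higher and 4.89% lower. Raffinose, PMP3/RCI2, dehydrin, trehalose and histone genes had 36.7% to 60% higher.

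Of 59 gene lists other than those of foreign tissues, 40 had more members that rose than fell, 9 had more that fell, 10 had equal numbers and 5 of these 10 had no member that passed. Among all genes tested more rose than fell as well, 1568 (6.54%) and 1173 (4.89%), so that nothing is read from this excess of lists. The lists were matched by the words of gene names and descriptions, and several share members.

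The joint change was set beside each treatment alone in Ye478. These comparisons share the control libraries. Under moderate drought alone 985 DEGs were found, 575 up-regulated (2.40%) and 410 down-regulated (1.71%), or 2510 in all with array weights, and under control-ABA 0 up-regulated and 1 down-regulated (0.00417%). The control-ABA count was 431 at an unadjusted p under 0.05 with the same fold change, 0 with voom and 1232 with array weights, and 8 without control-ABA library 2 or 0 without its library 3 or control library 2 or 3. Moderate drought DEGs numbered 282 and 474 without its library 1 or 2, and 414, 322 and 609 without control library 1, 2 or 3. They numbered 1148 without the third library labelled Y7-1 moderate drought. For the 1134 genes up-regulated under moderate drought-ABA, the median log2 fold change against control was 1.71 under moderate drought-ABA, 1.27 under moderate drought and 0.20 under control-ABA, and for the 580 down-regulated genes it was -1.38, -1.04 and -0.39. The genes were chosen by the first of these values, and the shared control libraries enter all 3, so the medians are a description with no test, and without any effect of a treatment the others need not be 0. In FPKM, nced5 averaged 31.4 ± 14.7 under moderate drought-ABA, 17.5 ± 14.5 under moderate drought, 0.722 ± 0.920 under control-ABA and 0.424 ± 0.231 under control (SD, n = 3 each). The ZmPMP3g homolog Zm00001d024778 averaged 2064 ± 772, 2723 ± 511, 341 ± 126 and 308 ± 119 FPKM in the same order. Both genes thus lay high in the groups with drought and low in those without, whether or not ABA was sprayed. Histone genes rose in 22 of 60 cases under moderate drought-ABA, where 6.54% of all genes rose, and in 5 under moderate drought, where 3.34% of all genes rose, and the difference was not tested.

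Tested against moderate drought directly, moderate drought-ABA had 1 up-regulated DEG (0.00417%) and 0 down-regulated. The count was 510 at an unadjusted p under 0.05 with the same fold change, 2 with voom and 764 with array weights. The gene was MADS-transcription factor 59 (Zm00001d009628), named here for this result and after its values had been seen. It had 1.44, 1.33 and 1.49 FPKM under moderate drought-ABA, against 0, 0.122 and 0 FPKM under moderate drought, with means of 0.0882 FPKM under control-ABA and 0.0682 FPKM under control. Its log2 fold change against moderate drought was 1.84 (adjusted p = 0.017, limma), with few reads behind each value. The count was 4 without moderate drought-ABA library 2, and 0 without its library 1 or 3 or any moderate drought library. The departure from additivity, that is the ABA difference under drought minus the ABA difference without drought, gave 0 DEGs in limma, with 634 at an unadjusted p under 0.05, 0 with voom and 1358 with array weights.

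**Figure D4:**
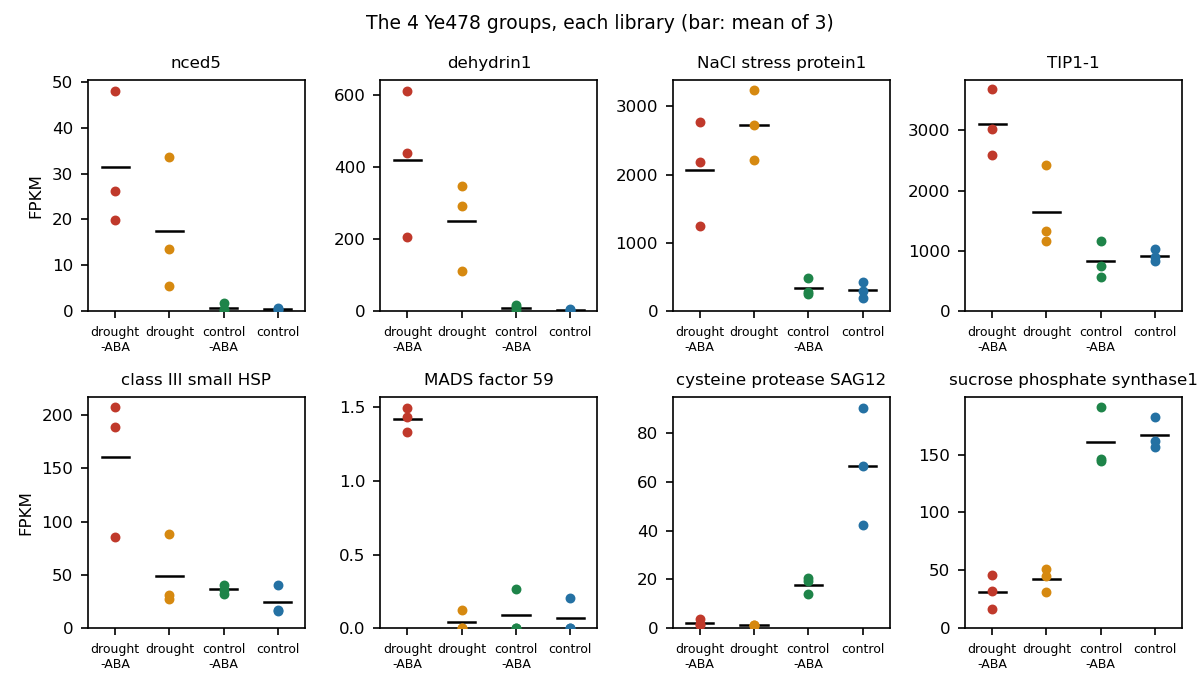
FPKM of 8 genes in each library of the 4 Ye478 groups, from left moderate drought-ABA, moderate drought, control-ABA and control, with a bar at the mean of 3. For nced5, dehydrin1, the ZmPMP3g homolog and sucrose phosphate synthase1 the groups with drought stood apart from those without, and MADS-transcription factor 59 was near 1.4 FPKM only under moderate drought-ABA among these 4 groups.

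The same comparison in Y7-1 uses other plants and was set beside that of Ye478. In Y7-1 there were 116 up-regulated (0.484%) and 69 down-regulated genes (0.288%) under moderate drought-ABA against control. Of the 1134 genes up-regulated in Ye478, 932 (82.2%) were higher in value in Y7-1 as well, against 49.2% of all genes, and 58 were DEGs there, which is 5.11% of the Ye478 list and 50% of the Y7-1 list. Of the 580 down-regulated genes, 497 (85.7%) were lower in value, against 50.2% of all genes, and 23 were DEGs, or 3.97% of the Ye478 list and 33.3% of the Y7-1 list. None was a DEG in the opposite direction (0 of 1714). The median log2 fold change of the same genes was 1.71 in Ye478 and 0.49 in Y7-1 for the up-regulated, and -1.38 and -0.43 for the down-regulated, where the Ye478 values are those by which the genes were chosen. The number of Y7-1 DEGs was 33 without its moderate drought-ABA library 2, 60 without library 3 and 43 without its control library 3, and it was 331 when the third library labelled Y7-1 moderate drought, which enters only the shared spread and held the genes read only in Ye478, was left out.

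The difference between the lines itself passed the test for 12 genes, 8 with a positive value of Ye478 minus Y7-1 (0.0334%) and 4 with a negative one (0.0167%), with 1740 at an unadjusted p under 0.05 and the same fold change. Histidine-containing phosphotransfer protein 4 (Zm00001d043505), of the cytokinin relay, had 80.0, 39.4 and 71.3 FPKM in Ye478 under moderate drought-ABA against 5.57, 8.30 and 23.3 FPKM under control. In Y7-1 it had 32.2, 11.6 and 25.0 FPKM under moderate drought-ABA against 42.5, 54.2 and 144 FPKM under control. The gene thus lay higher with treatment in Ye478 and lower in Y7-1, with a difference of 4.19 on the log2 scale (adjusted p = 0.042). A ubiquitin-specific protease family C19-related protein (Zm00001d002391) had 11.4, 6 and 6.12 FPKM against 1.22, 1.5 and 1.02 FPKM in Ye478, and 5.39, 5.93 and 6.47 FPKM against 7.57, 5.76 and 7.95 FPKM in Y7-1 (difference 2.43, adjusted p = 0.022). The peroxisomal membrane protein PEX14 (Zm00001d011119) had 32.1, 26 and 40.3 FPKM against 15.8, 15.1 and 14.3 FPKM in Ye478, and 18.5, 17 and 17.1 FPKM against 20.6, 19.8 and 23.3 FPKM in Y7-1 (difference 1.35, adjusted p = 0.022). The number of such genes was sensitive to the fit, from 4 with voom to 677 with array weights, and to single libraries, from 28 without Ye478 moderate drought-ABA library 2 and 19 without Y7-1 moderate drought-ABA library 1 to between 2 and 6 without any of Ye478 moderate drought-ABA library 1 or 3, Ye478 control library 1, 2 or 3, Y7-1 moderate drought-ABA library 2 or 3 and Y7-1 control library 3. It was 41 when the third library labelled Y7-1 moderate drought was left out, in which 62 of 62 genes read only in Ye478 and 0 of 118 read only in Y7-1 were found.

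**Figure D5:**
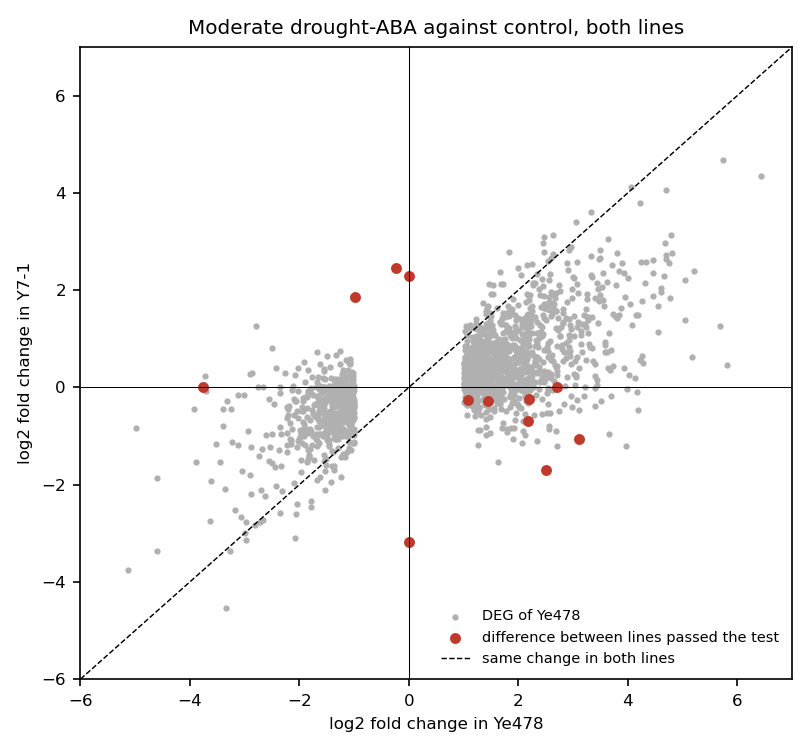
Log2 fold change of moderate drought-ABA over control in Ye478 (x axis) and in Y7-1 (y axis) for the 1714 DEGs of Ye478 and the genes whose line difference passed the test (12 red points). The dashed line marks equal change, and the medians were 1.71 in Ye478 against 0.49 in Y7-1 for up-regulated and -1.38 against -0.43 for down-regulated DEGs.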

How the data were processed

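Leaf mRNA of 24 maize plants was sequenced, 3 individual plants for each of 8 groups. The authors aligned the reads with HISAT2 2.0.5, per the submitters' processing notes, and deposited FPKM per gene. Gene IDs are of the B73 version 4 annotation. The sample labels name a mouse build, mouse tissue and another library kit, which were not used. Low FPKM values were whole multiples of 1 read (within 0.05), which gave the reads per library. The FPKM of 1 read for a gene of 1000 bases was 0.0566 to 0.0617 in control and 0.0581 to 0.0596 in moderate drought-ABA libraries. The library size that these steps give was not the total of gene reads. Gene reads over that size ran from 0.834 to 1.32 in the 24 libraries.

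Genes with at least 0.5 FPKM in 3 libraries were fitted as log2(FPKM + 0.5) with limma 3.58.1 (R 4.3.3), with 8 group means over all 24 libraries, a trended prior and Benjamini-Hochberg adjustment, and tested on simulated data. Rose and fell in gene lists mean an adjusted p under 0.05. Lists were matched by words in names and descriptions. Named genes were the 15 leading named DEGs per direction without overlap, up to 4 passing members per list and direction, all members of the small ABA, ASR and PMP3 lists, and the most abundant photosynthesis genes. Members and lists were chosen with earlier results of these data known. Alternatives were other pseudocounts (0.1, 1), filters (none, 1 FPKM), median ratio scaling, limma-voom on recovered reads, array weights, a replicate block, only the compared groups, and libraries left out. Median ratio scaling had factors of 1.01 to 1.02 in all 24 libraries, so it could change little. Leaving out libraries in the Y7-1 comparison was chosen after seeing the data. No sequences were analysed here. Python 3.11.15, pandas 2.3.3 and matplotlib 3.10.9 were used.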

Additional observations from a re-analysis of the deposited data

Results flagged for a closer look

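For 12 genes the change under moderate drought-ABA against control differed between Ye478 and Y7-1 by the test of the difference itself (limma, adjusted p under 0.05). Values are the Ye478 change minus the Y7-1 change on the log2(FPKM + 0.5) scale. The difference was positive for histidine-containing phosphotransfer protein 4 (Zm00001d043505, 4.19 ± 0.74 SE), the unnamed gene Zm00001d048789 (4.16 ± 0.65), the unnamed gene Zm00001d013165 (3.18 ± 0.31), plant/MUD21-2 protein (Zm00001d013384, 2.88 ± 0.50), the unnamed gene Zm00001d012397 (2.71 ± 0.44), the ubiquitin-specific protease family C19-related protein (Zm00001d002391, 2.43 ± 0.39), a nodulin MtN21/EamA-like transporter (Zm00001d036123, 1.73 ± 0.31) and PEX14 (Zm00001d011119, 1.35 ± 0.22). It was negative for cellulose synthase-like protein D3 (Zm00001d021732, -3.76 ± 0.57), a 5.8S rRNA model (ENSRNA049479611, -2.85 ± 0.30), a cytochrome b561 and DOMON domain-containing protein (Zm00001d021016, -2.69 ± 0.47) and a 3-ketoacyl-CoA synthase (Zm00001d037328, -2.30 ± 0.37).

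Several of these genes had no reads in a line. Cellulose synthase-like protein D3 was listed at 0 in all 6 Y7-1 libraries compared, and Zm00001d013165 and the 3-ketoacyl-CoA synthase were listed at 0 in all 6 Ye478 libraries, so for those genes the difference is the change of 1 line alone. The unnamed gene Zm00001d048789 had 11.6, 9.66 and 16.6 FPKM under moderate drought-ABA against 0.948, 0.806 and 1.24 FPKM under control in Ye478, and 6.67, 3.95 and 1.33 FPKM against 4.56, 11.3 and 8.17 FPKM in Y7-1. Each group held 3 libraries, too few to test single libraries as outliers.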

How the results depend on the processing

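Each Ye478 count and the line difference were recomputed under every alternative, and the Y7-1 count only without single libraries. With array weights there were 1779 up-regulated and 899 down-regulated genes under moderate drought-ABA, 2510 DEGs under moderate drought, 1232 under control-ABA, 764 against moderate drought, 1358 for additivity and 677 for the line difference. The 1 DEG under control-ABA became 0 with a pseudocount of 0.1, a 1 FPKM filter, voom or the replicate block, and 2 with a pseudocount of 1 or no filter. The 1 DEG against moderate drought became 0 with a pseudocount of 0.1 or only the compared groups, 2 with a 1 FPKM filter or voom, 3 with the replicate block, 4 with a pseudocount of 1 and 7 with no filter. Additivity gave 1 with no filter or only the compared groups. The 12 line genes became 6 with a pseudocount of 0.1, 147 with only the compared groups, 41 without the library labelled Y7-1 moderate drought 3 and 4 with voom, and the Y7-1 count of 185 became 331 without that library. In Ye478, leaving out that library gave 1279 up-regulated and 632 down-regulated genes under moderate drought-ABA and 1148 DEGs under moderate drought. Leaving out 1 library gave 462 to 1304 up-regulated and 166 to 709 down-regulated genes, 282 to 1286 under moderate drought, 0 to 8 under control-ABA, 0 to 4 against moderate drought, 0 to 0 for additivity, 2 to 28 for the line difference and 33 to 242 in Y7-1. The causes were not tested, beyond the smaller number of libraries. Moderate drought-ABA and control libraries of the same number had r of deviations of 0.04, 0.158 and 0.176. For libraries of different numbers r ran lower, from -0.172 to 0.0363. The labels name no pairing, and whether same-numbered plants shared a position or batch was not tested. With the replicate block 1127 genes were up-regulated and 584 down-regulated. Of 82 genes of the text that passed, 61 passed in every alternative, 62 without every single library, and 0 changed direction. Depth limits genes of a few reads.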
